A study of Rattus norvegicus with 25 samples.

Results

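miR-486 is a microRNA made by both skeletal muscle and red cells. It was examined here beside 3 microRNAs known as markers of red cells, in small RNA from mitochondria of the red part of the rat gastrocnemius. The 4 rows, rno-miR-486, rno-miR-451-5p, rno-miR-144-3p and rno-miR-144-5p, were taken by name from the 764 mature miRNAs of the count table, and are written below without the species prefix. All 25 libraries came from male Wistar-Kyoto rats allocated at random at 5 weeks of age. The trained group, 13 rats, had 4 weeks of treadmill running with sessions on 5 days of each week. The sedentary group, 12 rats, was handled alike and spent equal time on a belt that did not move. In both groups the mitochondria came from about 100 mg of muscle by magnetic beads from a kit made for mouse tissue, and before RNA extraction they spent 1 h at 37 °C in RNase A (312 µg). Blood, whole muscle and mitochondria spared the RNase A are not among the 25 libraries, so a count does not show whether a molecule lay inside the organelle, or in which cell. Fewer cells of a type and less RNA per cell cannot be told apart in such samples. A library is called by its group plus the number its title gives the rat. The labels name no batch or date, and p-values measure the spread between these libraries.

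miR-486 lies in an intron of Ank1, the gene of ankyrin 1, which anchors the membrane skeleton of red cells and has a short form in the sarcoplasmic reticulum of muscle. In muscle it is known for favouring growth, in part by lowering the transcription factor FOXO1. miR-144 and miR-451 are cut from a single transcript that the erythroid factor GATA1 switches on, and miR-451, which is matured by Argonaute 2 without Dicer, is the most abundant miRNA of the mature red cell. The muscle miRNAs set beside miR-486 were miR-1-3p and miR-133a-3p of striated muscle, miR-206-3p of skeletal muscle, and miR-378a-3p, encoded in the gene of the coactivator PGC-1β.

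The sequences below show how the red-cell rows, which had no counts, compare with counted rows. They are from RefSeq (assembly GRCr8), which held 687 of the 764 rows and 3 of the 4 members. Capitals mark the seed, bases 2 to 8, which selects the targets.
miR-451-5p: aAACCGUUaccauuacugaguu
miR-144-3p: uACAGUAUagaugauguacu
miR-144-5p: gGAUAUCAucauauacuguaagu
miR-1-3p: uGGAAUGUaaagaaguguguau
miR-206-3p: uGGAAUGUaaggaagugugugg
miR-378a-3p: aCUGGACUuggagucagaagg
miR-133a-3p: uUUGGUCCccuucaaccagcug
miR-92a-3p: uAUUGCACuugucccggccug
miR-25-3p: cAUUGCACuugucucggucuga

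None of the 3 red-cell seeds occurred in any other of the 687 matched rows. miR-1-3p and miR-206-3p share a seed, as do miR-92a-3p and miR-25-3p, a pair made by red cells and by many other cells. The red-cell sequences were low in G and C, at 36.4% for miR-451-5p, 30.0% for miR-144-3p and 30.4% for miR-144-5p, against a median of 47.6% over the 452 matched rows without a count. miR-1-3p, the row with the most counts, was also low, at 31.8%. Among the 235 matched rows with a count the median was 47.8%, and the median length was 22 bases with or without counts.

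The red-cell rows were at 0 in every library. miR-451-5p, miR-144-3p and miR-144-5p had 0 of 2094773 counts in all, which allows up to 1.43 CPM (counts scaled to an equal library total). In a single library a count of 0 allowed between 14.8 and 246 CPM. Such limits, set at 3 counts, cover counting error only. The minor strand miR-451-3p was at 0 as well. A row without a count was common in this table: 504 of 764 rows (66.0%) were at 0 in all 25 libraries. These included rows of miRNAs found in most cells, such as miR-15b-5p, while miR-16-5p had counts in 1 library. The sources used here do not say whether rows were emptied, or reads with several matches removed, before deposit. The zeros are therefore values of the table, and do not show that red-cell RNA was absent from the preparations.

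miR-486 was counted in all 25 libraries. It had 49420 counts, 2.36% of all, and ranked at 11 among the 764 rows, or at 9 when rows with nearly the same counts were taken once. Library totals hold such rows more than once, so the shares of miR-486 given here are lower than with these rows taken once. Against the limit of 3 counts over all libraries, it was at least 16473-fold higher than miR-451-5p, miR-144-3p or miR-144-5p. This bound holds only if the zeros were measured, and not if rows were emptied before deposit. Within a library this bound ran from 106-fold in sedentary library 19, the shallowest, to 2461-fold in sedentary library 7. A read covers a whole miRNA, so these counts need no correction for length. No other row carried nearly the same counts as miR-486: the closest one differed from it by up to 72.3% in a library.

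**Figure D1:**
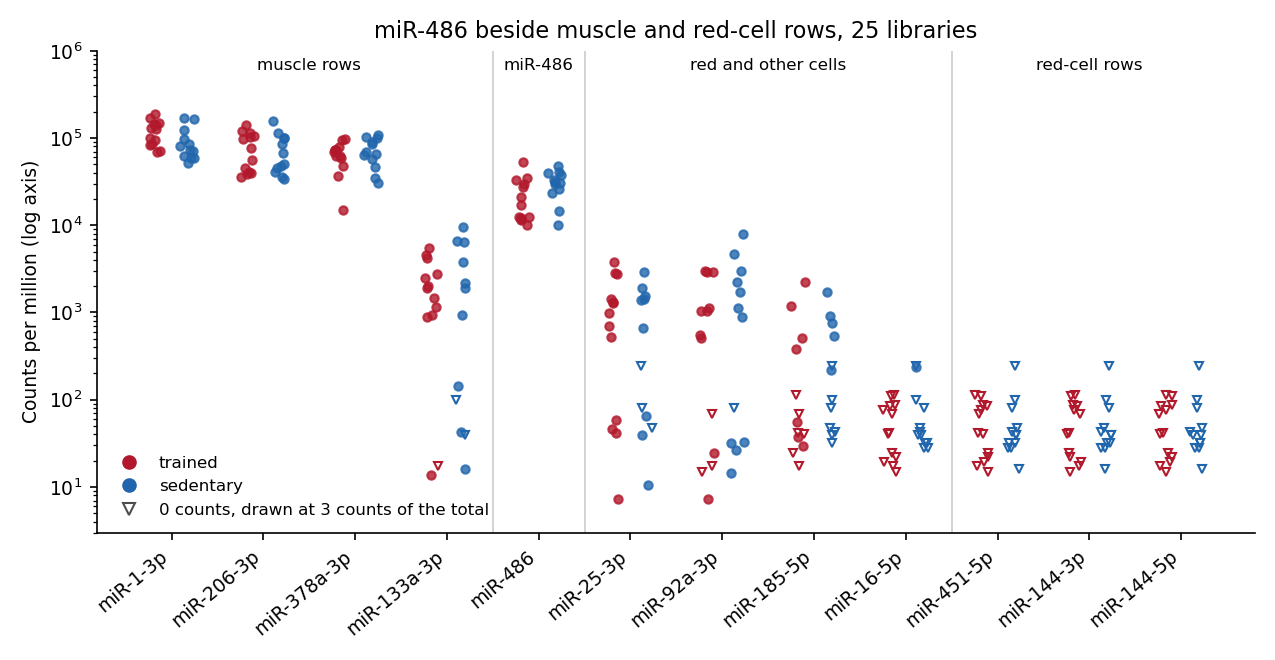
CPM (log axis) of 12 rows in 25 libraries, 13 trained (red) and 12 sedentary (blue); each filled point is a library, and open triangles are libraries with 0 counts, drawn at the level of 3 counts of their total. The points of miR-486, from 10020 to 52678 CPM, lie above all those of the rows shared with other cells, while miR-451-5p, miR-144-3p and miR-144-5p have no filled point.

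From rat to rat the share of miR-486 varied by over 5-fold. It held between 1.00% (sedentary library 29) and 5.27% of counts (trained library 13), with a mean of 2.60% ± 1.24 (SD, n = 25). The coefficient of variation between rats was 58.3% in the trained and 35.5% in the sedentary group. Counting error in a library was at most 5.60% of its value. Its rank within a library ran from 7 to 22, with a median of 10. On the log2 CPM scale its SD over libraries was 0.74, the 11th smallest of the 76 rows with enough counts to be tested. The median of these rows was 2.12, and all rows above that median had a lower level than miR-486. Among rows of like level, the SD was 0.53 for miR-143-3p and 0.70 for miR-151-3p. It was 0.94 for let-7f-5p and 0.96 for miR-148a-3p.

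Rows that red cells hold together with other cells were low beside miR-486. miR-25-3p had 2740 counts in all and reached 10 counts in 15 libraries, miR-92a-3p had 2324 counts and also reached 10 in 15 libraries, and miR-185-5p had 1075 and reached 10 in 9 libraries. Both miR-25-3p and miR-92a-3p come from clusters known for driving proliferation. miR-16-5p, which restrains the cell cycle, had 44 counts, all of them in sedentary library 7. miR-363-3p and miR-15b-5p were at 0. Without miR-486 the other 6 rows of this list summed to 0.257% ± 0.170 (SD, n = 13) of trained and 0.299% ± 0.284 (SD, n = 12) of sedentary counts. Over all libraries miR-486 stood 18.0-fold above miR-25-3p and 21.3-fold above miR-92a-3p in counts.

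Of the 4 muscle rows, miR-1-3p, miR-206-3p and miR-378a-3p stood above miR-486 on average, and miR-133a-3p below it. Per 100 counts of miR-1-3p there were 30.6 ± 20.0 counts of miR-486 (SD, n = 25, range 5.96 to 66.6). Per 100 counts of miR-206-3p there were 44.7 ± 29.3 (SD, n = 25, range 6.44 to 116), and per 100 of miR-378a-3p 43.4 ± 29.0 (SD, n = 25, range 16.0 to 140). In single libraries miR-486 was above miR-206-3p in sedentary library 7 and above miR-378a-3p in trained library 27. miR-133a-3p was far lower, with 3645 counts in all, 13.6-fold below miR-486. It had 0 counts in trained library 21 and in sedentary libraries 4 and 12, while sedentary library 32 held 621. Whether reads with several matches were removed before deposit is not stated, so the low level of miR-133a-3p is a value of the table. Reads of near-identical rows cannot be told apart in this table: miR-133a-3p had nearly the counts of miR-133b-3p (3632) and miR-133c (3645), miR-1-3p (241423) those of miR-3571 (241335), and miR-378a-3p (136920) those of miR-3557-5p (137458). The 4 muscle rows together took 25.2% ± 5.86 of counts (SD, n = 25), and miR-486 came to 11.2 ± 6.10 counts per 100 of their sum.

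Trained and sedentary rats were compared to ask whether endurance training changed miR-486. In trained libraries it took between 1.01% and 5.27% of counts with a median of 1.70%, and in sedentary libraries between 1.00% and 4.75% with a median of 3.10%. The groups overlapped over nearly the whole range, though 10 of 13 trained libraries lay under the sedentary median. The means were 2.21% ± 1.29 (SD, n = 13) and 3.04% ± 1.08 (SD, n = 12). By a two-sided permutation test their difference of -0.83 percentage points missed the threshold of 0.05 (p = 0.0952). With near-identical rows taken once the means were 2.81% (trained) and 3.77% (sedentary). That difference of -0.96 points missed the threshold too (permutation p = 0.114). With every row in the total, the difference passed without trained library 13, the highest of its group (-1.08, permutation p = 0.0168). It also passed without sedentary library 29, the lowest of its group (-1.01, permutation p = 0.0403). When the 25 libraries were left out in turn, it did not pass in 23 cases (permutation p up to 0.170).

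In the count model over all tested rows, the trained level of miR-486 was 0.790 of the sedentary one. On the log2 scale that is -0.34 with an SE of 0.29 and a 95% interval from -0.92 to 0.25 (edgeR quasi-likelihood test, adjusted p = 0.916). 0 of the 76 tested rows were called (0%), with 1 at an unadjusted p under 0.05. DESeq2, over 235 rows, and limma-voom called 0 as well, with 8 and 14 at an unadjusted p under 0.05. With no filter on low counts edgeR called 66 of 260 rows (25.4%), and miR-486 was not among them (edgeR adjusted p = 0.620). The red-cell rows had no counts and could not be tested, so miR-486 is the only one of the 4 members in this count. The interval for miR-486 was narrower than those of the low rows beside it. miR-92a-3p was at -1.12 (SE 1.05) and miR-25-3p at 1.15 (SE 1.02). The muscle rows miR-1-3p, miR-1b and miR-206-3p had positive values of 0.60, 0.33 and 0.30, and miR-378a-3p was at 0.02, all with intervals that held 0.

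**Figure D2:**
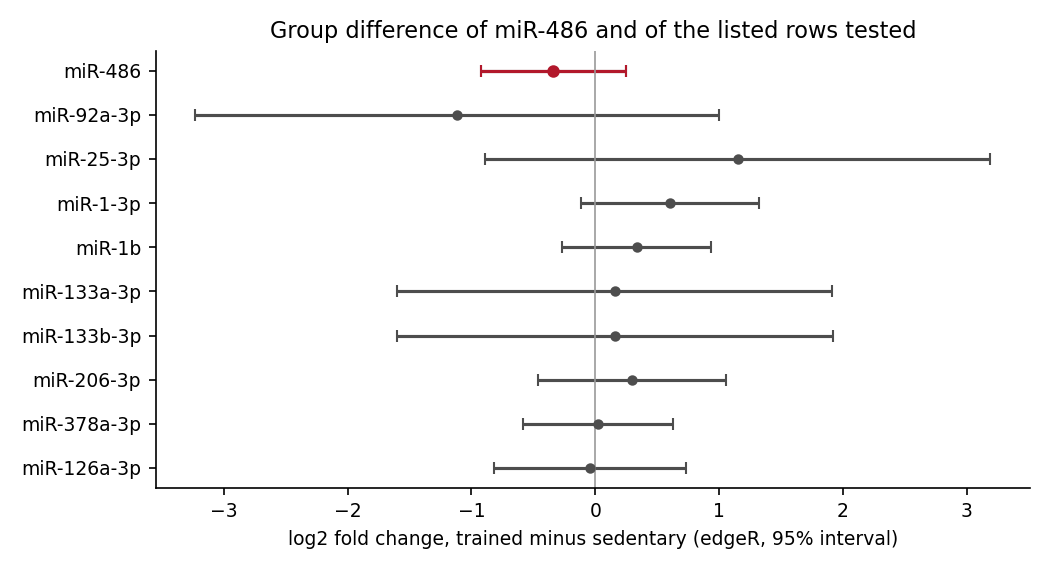
log2 fold change, trained minus sedentary, with its 95% interval from edgeR, for miR-486 (red) and the other listed rows with enough counts to be tested (13 trained and 12 sedentary libraries). The interval of miR-486, from -0.92 to 0.25, and those of the other rows all cross 0.

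The ratio of miR-486 to a muscle row in the same library does not depend on how libraries are scaled. In libraries with 0 or 1 counts of miR-133a-3p, however, its ratio rests on the 0.5 added to counts and follows depth. The 5 ratios share miR-486 and are not independent. All 5 were lower in trained rats on average, and none passed the threshold once adjusted over the 5. To miR-1-3p the log2 ratio averaged -2.57 ± 1.15 over 13 trained and -1.59 ± 1.02 over 12 sedentary rats (mean ± SD), a difference of -0.98 or 0.506-fold (two-sided permutation test, p = 0.0361, adjusted p = 0.144). Between group medians it was -1.99, which did not pass either (permutation test, adjusted p = 0.0611). To the sum of the 4 muscle rows the difference was -0.71 (permutation p = 0.0577, adjusted p = 0.144). To miR-206-3p it was -0.66, to miR-378a-3p -0.40 and to miR-133a-3p -1.49 (permutation tests, adjusted p = 0.280, 0.281 and 0.284). Without sedentary library 29, which had the least miR-486 per count of miR-1-3p, the differences for miR-1-3p and for the sum passed, at -1.21 and -0.91 (permutation tests, adjusted p = 0.0252 for both). For each of these measures, 24 of the 25 leave-outs did not pass (permutation tests, adjusted p up to 0.246).

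**Figure D3:**
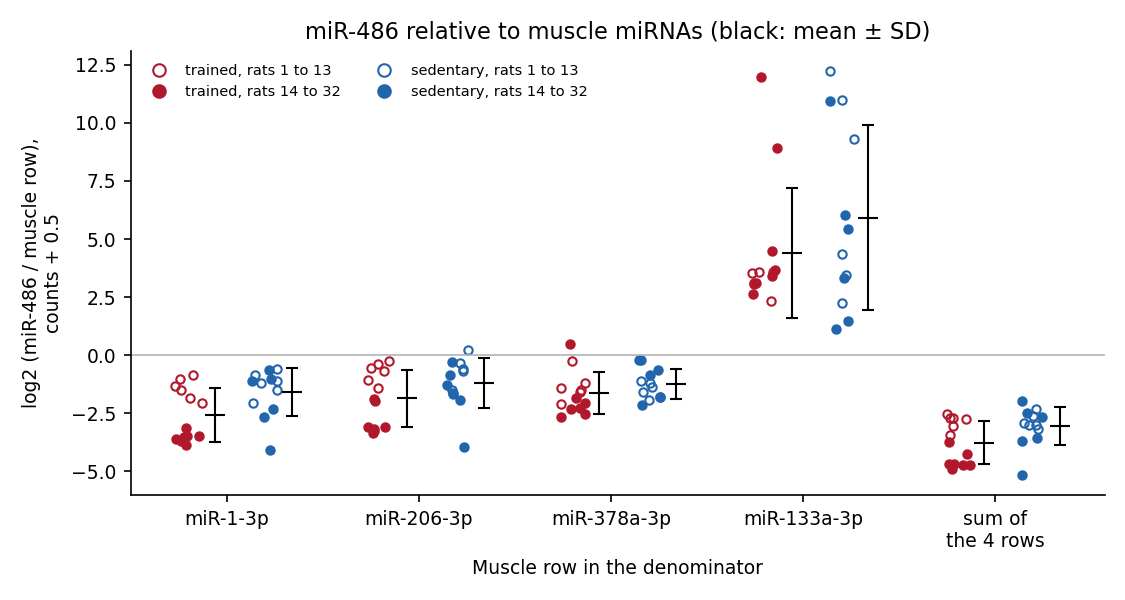
log2 ratio of miR-486 to each of 4 muscle rows and to their sum, with 0.5 added to each count; points are libraries (red trained, blue sedentary, open for rats 1 to 13, filled for rats 14 to 32) and black bars give mean ± SD. The filled red points for miR-1-3p lie in a narrow band below all open points, and the miR-133a-3p ratios are spread the most.

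The values of miR-486 and the library totals were also set against the rat numbers. Trained totals ran from 26793 to 43510 for rats 1 to 13 and from 72553 to 202388 for rats 14 to 32. Sedentary totals ran from 30527 to 186006 and from 12181 to 106661 for the same ranges. These ranges of numbers were chosen with earlier results known, and the labels do not call them batches. In trained rats 1, 2, 5, 6, 10 and 13 the share of miR-486 was 2.74%, 2.99%, 3.50%, 1.70%, 3.33% and 5.27%. In trained rats 14, 17, 18, 21, 25, 26 and 27 it was 1.26%, 1.01%, 1.22%, 1.17%, 1.25%, 1.15% and 2.10%. Only library 27 of the second set reached the first, where it lay above library 6.

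Among sedentary rats the values of both ranges overlapped. At numbers 3, 4, 7, 8, 11 and 12 their shares were 2.35%, 3.30%, 3.97%, 2.98%, 3.06% and 3.15%. At numbers 15, 16, 19, 29, 30 and 32 they were 4.75%, 3.76%, 2.62%, 1.00%, 4.04% and 1.44%. Rats 29 and 32 were thus as low as the trained rats of that range, and the other 4 were higher than all of those. As a ratio to miR-1-3p the trained ranges did not overlap: trained rats 1 to 13 had 24.3 to 55.0 counts of miR-486 per 100 of miR-1-3p, and trained rats 14 to 32 had 6.80 to 11.3. miR-1-3p itself took 7.00% to 9.97% of counts in the first and 12.8% to 18.7% in the second of these sets. In the count model trained rats 14 to 32 minus trained rats 1 to 13 gave -0.73 for miR-486 on the log2 scale (SE 0.38, edgeR adjusted p = 0.301), where 7 of 76 rows were called (9.21%). By library totals alone it was -1.31 (SE 0.32, edgeR adjusted p = 0.00367), where 6 of 76 rows were called and 20 had an unadjusted p under 0.05. The same contrast in sedentary rats gave -0.14 (SE 0.40, edgeR adjusted p = 0.917), where 0 of 76 were called.

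Other rows were set beside these trained ranges. The rows that red cells share with other cells, without miR-486, took 0.296% ± 0.208 of counts in trained rats 1 to 13 (SD, n = 6) and 0.223% ± 0.137 in trained rats 14 to 32 (SD, n = 7). The liver miRNA miR-122-5p, a plasma marker, took 0.191% ± 0.204 (SD, n = 6) and 0.0274% ± 0.0706 (SD, n = 7). The muscle list took 32.4% ± 4.12 (SD, n = 6) and 38.2% ± 3.86 (SD, n = 7). The part of these rows in the values of miR-486 was not tested.

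**Figure D4:**
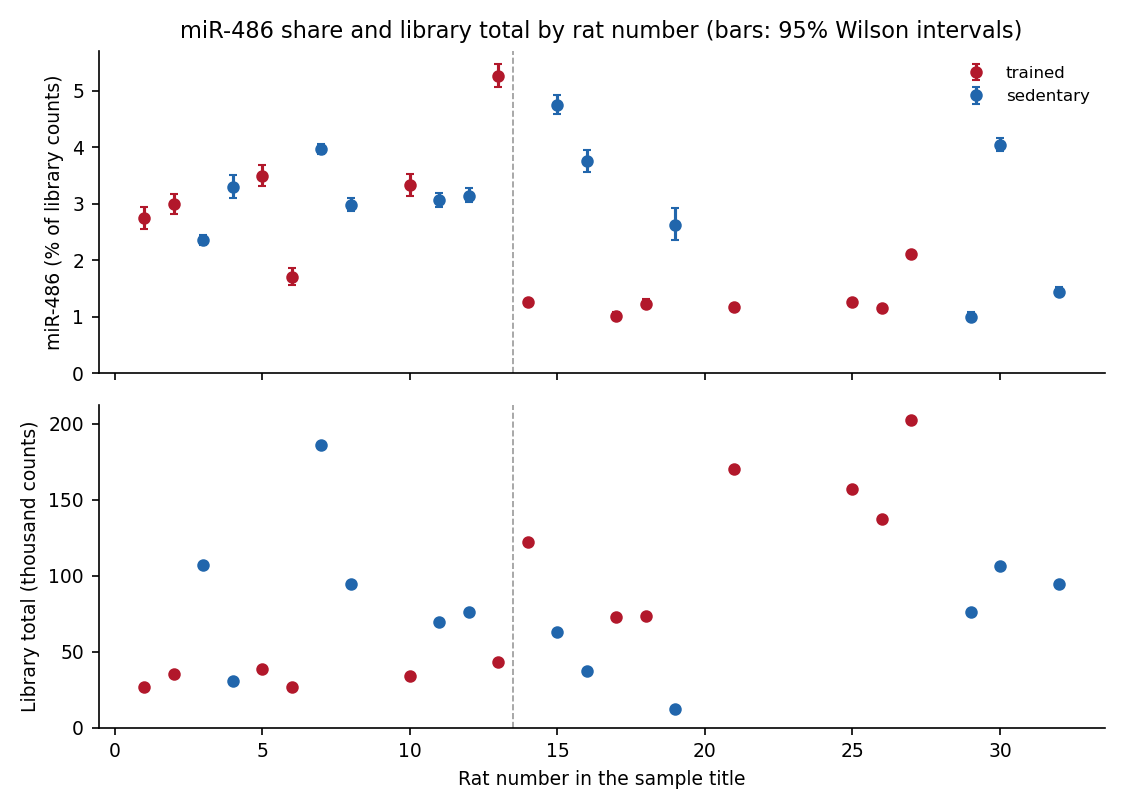
Upper panel: share of miR-486 in the library counts (percent, with 95% Wilson intervals for counting error) against the rat number in the sample title. Lower panel: library totals. Trained libraries (red) numbered 14 and above lie at 1.01% to 2.10% and have totals of 72553 or more, while sedentary libraries (blue) lie at 2.35% to 3.97% up to number 13 and at 1.00% to 4.75% above it.

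Within the ranges the groups compared as follows. Among rats 1 to 13 trained rats had a mean miR-486 share of 3.25% ± 1.17 (SD, n = 6) and sedentary rats one of 3.14% ± 0.522 (SD, n = 6), a difference of 0.12 points (two-sided exact permutation test, p = 0.840). Among rats 14 to 32 it was 1.31% ± 0.361 (SD, n = 7) and 2.94% ± 1.50 (SD, n = 6), a difference of -1.63 points (exact permutation test, p = 0.0210, adjusted p = 0.0420 over both ranges). When each library of the higher range was left out in turn, this difference ran from -2.01 to -1.26 (exact permutation p 0.00505 to 0.0455). The ranges were chosen with earlier results known, and adjusting over both ranges makes no allowance for that choice. In rats 14 to 32 none of the 5 ratios to muscle rows passed (exact permutation tests, adjusted p 0.0583 to 0.732 over the 5). Between ranges the group difference in share changed by -1.75 points. With group labels permuted within ranges this change had p = 0.0456, and adjusted p = 0.103 over 6 measures. It thus did not pass the threshold. Both groups held rats of both ranges. Within the trained group the totals of the ranges did not overlap, so rat number and depth cannot be told apart there. With the log2 library total as a covariate over all 25 libraries, the log2 fold change of miR-486 between the groups was -0.35 (SE 0.29, edgeR adjusted p = 0.762). That covariate was not fitted to the share or within a range, so the part of depth in the range differences was not tested.

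In the count model the same contrast depended on the scaling of libraries. With TMM factors the log2 difference of miR-486 among rats 14 to 32 was -0.65 (SE 0.38, edgeR adjusted p = 0.470), where 3 of 76 rows were called (3.95%), and it was -0.25 without sedentary library 15 (edgeR adjusted p = 0.811). By library totals alone it was -1.16 (SE 0.32, edgeR adjusted p = 0.0152), where 5 of 76 rows were called. Among rats 1 to 13 it was -0.06 (SE 0.40, edgeR adjusted p = 0.994) with 0 of 76 rows called, or 0.05 by totals alone. The interaction term was -0.59 (SE 0.55, edgeR adjusted p = 0.745), where 1 of 76 rows was called (1.32%), and by totals alone -1.22 (SE 0.45, edgeR adjusted p = 0.256). It was -0.31 without trained library 13 and also without sedentary library 15 (edgeR adjusted p = 0.863 and 0.857).

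Across rats, miR-486 followed none of the 4 muscle rows closely. Over the 25 libraries its log2 CPM had a Pearson r of 0.39 with miR-378a-3p (permutation p = 0.0524, adjusted p = 0.210 over 4 rows; Spearman rho 0.42, permutation p = 0.0363, adjusted p = 0.145). Without trained library 27 and sedentary library 19, the most distant in miR-378a-3p, r was 0.55 (permutation p = 0.00722). With miR-206-3p r was 0.20 (permutation p = 0.326, adjusted p = 0.510) and rho 0.11 (permutation p = 0.595). With miR-1-3p r was 0.06 (permutation p = 0.792, adjusted p = 0.792) and rho 0.04 (permutation p = 0.865). With miR-133a-3p r was -0.18 (permutation p = 0.383, adjusted p = 0.510) and rho -0.05 (permutation p = 0.823). For these last 3 rows, r without the pair of libraries most distant from the median was 0.20, 0.05 and -0.20. miR-1b of the muscle list had a rho of 0.33 over the 25 libraries, 0.46 in trained and 0.55 in sedentary ones, which was not tested.

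The relation was also computed within each range of rat numbers, and the difference between ranges was not tested. In rats 1 to 13 r was 0.76 with miR-206-3p, 0.71 with miR-1-3p and 0.68 with miR-378a-3p over 12 libraries (permutation tests, adjusted p = 0.0148, 0.0187 and 0.0187), with rho 0.76, 0.75 and 0.71. With miR-133a-3p it was -0.17 (rho -0.02, permutation test, adjusted p = 0.592). Over the 75 other tested rows the median r in these libraries was 0.063, and 9 rows had a higher r than 0.6. miR-206-3p, miR-1-3p and miR-378a-3p are among these 9. The 75 rows also hold miR-3571 and miR-3557-5p, near-identical to miR-1-3p and miR-378a-3p. Without the pair of libraries most distant from the median, r with miR-206-3p, miR-1-3p and miR-378a-3p was 0.66, 0.63 and 0.43. Scaled by library totals alone, it was 0.55, 0.19 and 0.05, none of which passed (permutation tests, adjusted p = 0.290, 0.970 and 0.970). With the authors' normalized values r was 0.71, 0.52 and 0.49, of which the value for miR-206-3p passed (permutation tests, adjusted p = 0.0417, 0.140 and 0.140). Without trained library 6, r with miR-378a-3p was 0.57 and no longer passed (permutation test, adjusted p = 0.0912). Among rats 14 to 32, r was 0.26 with miR-206-3p, 0.10 with miR-1-3p, 0.15 with miR-378a-3p and -0.27 with miR-133a-3p over 13 libraries (permutation tests, adjusted p = 0.742 for each). Within the 13 trained libraries r was 0.13 with miR-378a-3p, 0.15 with miR-206-3p, -0.04 with miR-1-3p and 0.45 with miR-133a-3p (permutation tests, adjusted p = 0.896, 0.896, 0.897 and 0.488). Within the 12 sedentary libraries it was 0.65, 0.34, 0.31 and -0.58 in the same order (permutation tests, adjusted p = 0.0737, 0.328, 0.328 and 0.0864). All r values with miR-133a-3p, here and over the 25 libraries, rest in part on libraries with 0 or 1 counts of it. Without sedentary library 15, which had 1 count, r in rats 14 to 32 was 0.06. It stayed negative without any other single library of that range.

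**Figure D5:**
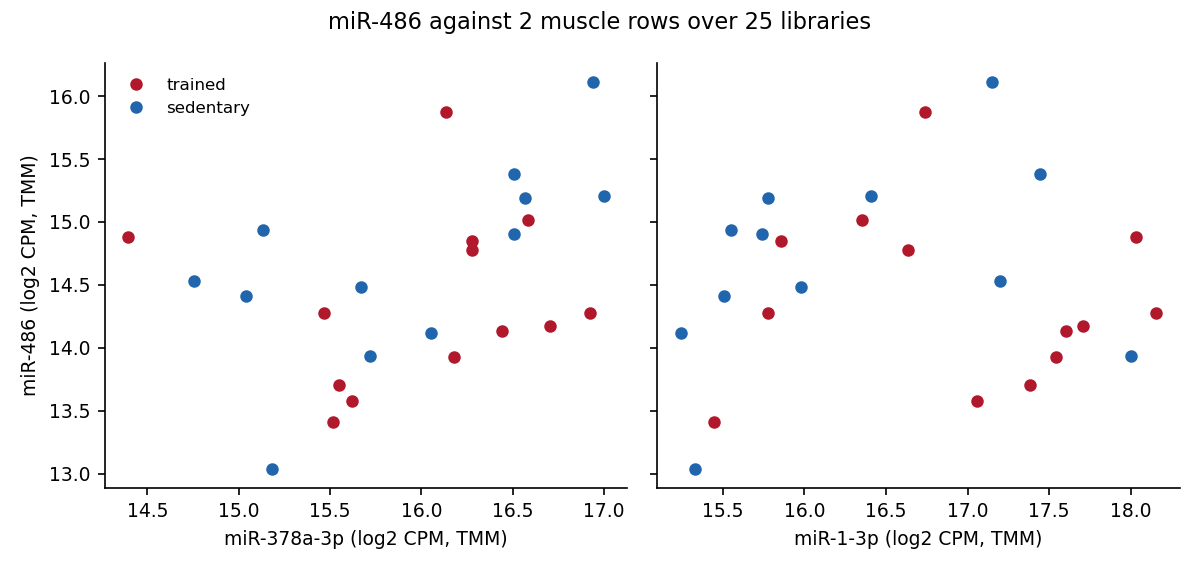
miR-486 against miR-378a-3p (left) and miR-1-3p (right), each as log2 CPM with TMM factors; points are 25 libraries, red trained and blue sedentary. Pearson r is 0.39 on the left and 0.06 on the right.

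The rows most like miR-486 over the 25 libraries, by Spearman rho of log2 CPM among the other 75 tested rows, were led by miR-146a-5p, which dampens inflammatory signalling, with a rho of 0.59. It was followed by miR-191a-5p with 0.46, miR-134-5p of the Dlk1-Dio3 cluster with 0.44, miR-378b with 0.43 and miR-378a-3p with 0.42. miR-378b and miR-378a-3p had similar totals, 132331 and 136920 counts, and need not be separate signals, though they were not near-identical by the rule used here. The median rho over the 75 rows was 0.09. miR-206-3p stood at position 32, miR-1-3p at 42 and miR-133a-3p at 51, and the least alike was miR-99a-5p with -0.38. By Pearson r the order differed, and miR-146a-5p, at 0.40, was not the first. All these rows share library depth and scaling with miR-486, and none of the orders was tested.

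Markers of other cells were taken as lists. The muscle list had counts for 7 of its 8 rows, which summed to between 26.8% and 44.3% of a trained library and between 21.7% and 45.2% of a sedentary one. miR-208b-3p, a miRNA of slow and heart muscle, was at 0, and miR-499-5p of slow fibres had 412 counts in 5 libraries. Of 5 leukocyte rows, no count was given to miR-223-3p, miR-155-5p or miR-142-3p, while miR-142-5p had 4 counts and miR-150-5p of lymphocytes had 346. Together they reached at most 0.114% of a trained and 0.238% of a sedentary library, with a median of 0% in both groups. miR-126a-3p, of endothelium and platelets, was counted in all libraries while miR-126a-5p was at 0. Its share was 0.513% ± 0.223 over 13 trained and 0.705% ± 0.508 over 12 sedentary libraries (mean ± SD), and its rho with miR-486 was -0.26. miR-122-5p, which the liver releases into plasma, had 1175 counts in 18 libraries. The part of blood or of other cells in the miR-486 counts was not tested.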

How the data were processed

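The authors deposited raw counts per mature miRNA, whole numbers with empty cells that were read as 0, since the authors' normalized table has 0 there. That second table holds a signal, the count divided by 1 size factor per library, per the deposited values. fastp 0.20.0 and DESeq2 1.36 are named in the submitters' processing notes. Not given in the sources used here are the aligner, the counting tool with its handling of strand and of reads with several matches, the genome and the miRNA set, so no coordinates are printed. The labels' protocols give 20 PCR cycles and adapters diluted 0.3-fold, and name no molecular identifiers.

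Groups and rat numbers were taken from sample titles. Totals ranged from 12181 to 202388 counts. Over 144 pairs of libraries within a group, the lowest chi-square per degree of freedom was 20.7, so none was a copy of another. The test was edgeR 4.0.16 (quasi-likelihood, TMM, no covariates, filterByExpr with minimum count 10) in R 4.3.3, with Benjamini-Hochberg adjustment over 76 tested rows and a threshold of 0.05. These rows held 96.9% to 99.0% of counts. Log2 CPM used a prior count of 2. Shares, ratios (0.5 added to counts) and correlations were tested by two-sided permutation (100000 resamples, numpy 2.4.6). Group differences in shares and ratios within a number range were tested by exact permutation instead (scipy 1.17.1). The edgeR fit, the resampled group test and the correlation test were first tested on simulated data. The exact tests and the permutation of labels within ranges were not. Counts simulated for edgeR varied less between libraries than these data, so they do not show how well the fit finds changes here. Near-identical rows differed by at most 10% in every library with a pair sum of 10 or more. DESeq2 1.42.0, limma-voom (limma 3.58.1), other scalings and filters, and leaving out libraries were the alternatives.

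The members, the lists and the number ranges were chosen with earlier results of these data known. Named rows were the 4 members, 4 muscle rows, listed rows with 10 counts in some library, and the 5 rows most like miR-486. miR-451-3p and listed rows under 10 counts were named after their values were seen, as were miR-99a-5p, the near-identical rows of the muscle rows and single libraries.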

Additional observations from a re-analysis of the deposited data

How the results depend on the processing

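No paired analysis was possible because the groups share no rat number. The number of called rows was 0 in 9 of 10 other settings and 66 of 260 (25.4%) with no filter on low counts, where miR-486 was not among them (edgeR adjusted p = 0.620). The log2 fold change of miR-486 kept its sign and its side of the threshold in these 10 settings (-0.46 to -0.23) and without each of the 25 libraries (-0.54 to -0.11). Chosen after the data were seen were the shares and ratios within ranges of rat numbers, the other scales of the correlations within ranges, and the left-out libraries within ranges. The difference in share was 0.12 points in rats 1 to 13 and -1.63 in rats 14 to 32, and ran from -1.08 to -0.67 when libraries were left out in turn. Leaving out libraries moved the log2 ratio difference to between -1.21 and -0.87 for miR-1-3p and between -0.91 and -0.62 for the muscle sum. It was 0.025 for miR-206-3p and 0.16 for miR-378a-3p in rats 1 to 13, and 0.74 for miR-133a-3p in rats 14 to 32. With the authors' normalized values, r over all libraries was -0.23 for miR-1-3p, -0.014 for miR-206-3p and 0.014 for miR-133a-3p. In rats 1 to 13 these values gave r of 0.52 for miR-1-3p and 0.49 for miR-378a-3p, and totals alone gave 0.19, 0.55 for miR-206-3p and 0.046 for miR-378a-3p; leaving out libraries gave 0.57 to 0.84 for miR-378a-3p. The edgeR difference in rats 1 to 13 was 0.036 with DESeq2 size factors, 0.054 with totals alone, 0.061 without sedentary library 19, whose total was under 0.25 of the median, and -0.37 to 0.21 without each library. In rats 14 to 32 it was -1.16 with totals alone and -0.88 to -0.25 without each library, and the interaction was -0.84 to -0.31. The cause of these changes was not tested. Depth limits the red-cell rows, for which 0 counts allowed up to 246 CPM in the shallowest library.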
